A study of Mus musculus with 58 samples.

Results

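The genes described here are 10 transcripts known to be induced by glucocorticoids, namely Fkbp5, Tsc22d3, Per1, Zbtb16, Sgk1, Klf9, Dusp1, Mt1, Mt2 and Pdk4. They were chosen as a list of symbols and found through the Ensembl gene identifier of each, 10 of 56953 genes in the count table, and all 10 were among the 12464 genes with enough reads to be tested (at least 5 reads in more than 3 libraries). They were measured in adipose stem cells (ASC) sorted from inguinal white adipose tissue (iWAT) of C57BL6/J mice as CD45-/CD31-/CD34+ cells, divided by the surface peptidase DPP4 into ASC1 (DPP4-) and ASC2 (DPP4+). Operated mice had lost their gonads at 4 weeks of age, males by castration and females by ovariectomy, and all mice, controls of both sexes included, were terminated at 10 weeks after a fast of 4 h. The 58 bulk Smart-seq3 libraries were divided by population, sex and operation into 8 groups. Each group had 8 libraries, except for ASC1 from control males with 7 and ASC1 from ovariectomized females with 3.

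Glucocorticoids are adrenal steroids that bind the glucocorticoid receptor, encoded by Nr3c1, which then moves into the nucleus and binds the glucocorticoid response element (GRE), a palindrome of a pair of half-sites. In the cytoplasm the receptor is held by Hsp90 with co-chaperones, and FKBP5, made in response to the hormone, lowers the affinity of the receptor for it in a feedback loop. In adipose tissue glucocorticoids promote the differentiation of precursors into adipocytes. Several of the 10 genes also answer other signals: Dusp1 responds to mitogens and stress, Mt1 and Mt2 to zinc through the metal response element (MRE), Per1 to the circadian clock, Pdk4 to fasting, and Fkbp5 and Tsc22d3 can be induced through other steroid receptors as well. No hormone level was part of the data, so the name of the group rests on this background and not on a measurement in these cells.

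The promoters of 9 of the 10 genes were matched by symbol in RefSeq sequences of build GRCm38.p6, with 17 start sites between them (Zbtb16 was not matched). The 250 bases before each start were searched on both strands. The full GRE palindrome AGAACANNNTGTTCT was found in 3 of the 32851 promoters of the table, or 0.00913%, and one of these belonged to Sgk1. A shorter palindrome, GNACANNNTGTNC, which every full GRE also matches, was found in 0.387% of all promoters and in those of Sgk1 and Mt1. The MRE core TGCACNC was found in 10.4% of all promoters and the form TGCGCNC in 12.5%. At least one of these forms was found in 3 of the genes, TGCACNC in Mt1 and Mt2 and TGCGCNC in Mt2 and Per1. These matches are letters in a sequence, and binding was not measured.

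The following stretches are shown because Sgk1 held the full palindrome, and because the neighbouring genes Mt1 and Mt2 differed from most of the list in direction. Capitals mark the palindrome in Sgk1, the shorter palindrome and the MRE forms in Mt1, and the MRE forms in Mt2. All 3 are on the plus strand and are written 5′ to 3′. The Sgk1 stretch is at chr10:21993640-21993769 and covers 130 bases from 250 bases before one of 6 annotated starts, with the palindrome beginning 189 bases before that start. The Mt1 stretch is at chr8:94178839-94179088 and the Mt2 stretch at chr8:94172368-94172617, each covering the 250 bases before the start.
Sgk1: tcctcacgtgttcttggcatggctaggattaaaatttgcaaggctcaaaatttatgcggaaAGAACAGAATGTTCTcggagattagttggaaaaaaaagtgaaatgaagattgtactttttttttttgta
Mt1: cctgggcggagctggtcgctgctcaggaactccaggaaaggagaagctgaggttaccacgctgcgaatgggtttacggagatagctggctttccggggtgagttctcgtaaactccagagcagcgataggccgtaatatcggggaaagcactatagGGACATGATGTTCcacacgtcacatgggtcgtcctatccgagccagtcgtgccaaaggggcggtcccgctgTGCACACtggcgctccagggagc
Mt2: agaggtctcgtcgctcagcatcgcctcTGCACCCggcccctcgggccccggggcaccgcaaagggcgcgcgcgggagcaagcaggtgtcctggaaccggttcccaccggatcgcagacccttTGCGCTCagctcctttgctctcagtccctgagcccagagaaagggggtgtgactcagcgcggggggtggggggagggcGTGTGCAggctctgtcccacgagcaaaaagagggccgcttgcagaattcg
In Mt1 the shorter palindrome began 94 bases and the MRE 23 bases before the annotated start. Bases outside the 250 were not searched, so further matches near the gene would not be counted. In Mt2 the core MRE began 223 and 50 bases before the start, and the other form 128 bases before it.

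Total counts per library were between 106566 and 1421547. Levels are given as CPM, the usual scaling of counts by library size, with sizes adjusted by the TMM method, and differences as log2 fold changes ± standard error (SE) from the quasi-likelihood test of edgeR fitted to all 58 libraries in 8 groups, with p adjusted by the Benjamini-Hochberg method over all genes tested and a threshold of 0.05. Libraries are named by their labels, although sex-chromosome transcripts went against the labelled sex in 27 of them. A library labelled male was counted at 10 CPM or more of Xist. One labelled female was counted at 10 CPM or more of 4 Y-linked transcripts summed. Some of the 27 carried both kinds, such as library E of control female ASC2 (87.1 CPM of Xist, 36.4 CPM Y-linked). Among the 27 were 8 of 8 ASC1 libraries of castrated males. In control males they were 4 of 7 in ASC1 and 4 of 8 in ASC2. In control females they were 5 of 8 in ASC1 and 6 of 8 in ASC2. No such library was found in ASC2 of castrated males or in ovariectomized females. Calls that were lost without those libraries are named, and for castration in ASC1, where all operated libraries were affected, such a value could not be had. Dpp4 and 3 other ASC2 markers summed to 509 to 5933 CPM in the ASC2 libraries and to 16.6 to 418 CPM in the ASC1 libraries, as sorted.

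The 3 ASC1 libraries of ovariectomized females stood apart from the other 55. They were what remained of this group after the authors dropped libraries with few genes detected. Libraries L, N and P had 11634, 9698 and 9122 genes detected, from total counts of 1114334, 256565 and 188599. In ASC2 of ovariectomized females, library K had 15032 genes from 1118901 counts, and library N had 11485 from 248114. Fibroblast markers (Pdgfra, Col1a1, Dcn and Lum) summed to 43144 to 45105 CPM in the 3 libraries. In ASC1 of control females that sum was 5122 to 9137 CPM. ASC1 markers summed to 974 to 1634 against 267 to 614 CPM, and ASC2 markers to 242 to 418 against 28.1 to 148 CPM. The highest sum of ASC2 markers in any ASC1 library, 418 CPM, was thus in this group. Dividing-cell genes, 10 in all and listed after values had been seen, summed to 11.4 to 22.9 CPM in the 3 libraries and to 336 to 1228 CPM in ASC1 of control females, and Ccnb1, Birc5, Bub1 and Ccna2 had no read in the former. Immediate early genes, which tissue dissociation can induce, summed to 3938 to 5929 against 1011 to 1386 CPM. All 5 mammary epithelium markers, Epcam included, were without a read in the 3 libraries and summed to 39.4 to 720 CPM in control females. Markers of macrophages and other blood cells summed to 24.8 to 27.5 against 46.1 to 313 CPM, and endothelial markers to 0 to 30.9 against 41.7 to 123 CPM. Mural markers summed to 180 to 335 against 1040 to 2486 CPM. Single mural genes differed in direction, as 2 of 6 tested were called higher and 2 lower. Adipocyte markers summed to at most 30.6 CPM in any library. The part of these differences in the results on ovariectomy in ASC1 was not tested, and in bulk libraries fewer cells of a type and less RNA per cell cannot be told apart.

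The first question was whether removal of the gonads changed the 10 genes. In ASC1 of ovariectomized females all 10 passed the test, 7 higher (12.7% of genes tested were called higher) and 3 lower (22.1% were called lower). The 7 higher genes were Tsc22d3, Per1, Zbtb16, Sgk1, Klf9, Dusp1 and Pdk4, and the 3 lower ones were Fkbp5, Mt1 and Mt2. The median log2 fold change of the 10 was 1.85, against -0.34 over all genes. Without the control libraries that went against their sex label 9 of the 10 passed, all but Per1, with Sgk1 (1.38, adjusted p = 0.0342) and Pdk4 (3.43, adjusted p = 0.0384) nearest to the threshold. In the other 3 comparisons of operated with control mice, 1 call was made in all, a lower Tsc22d3 in ASC2 of castrated males.

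**Figure D1:**
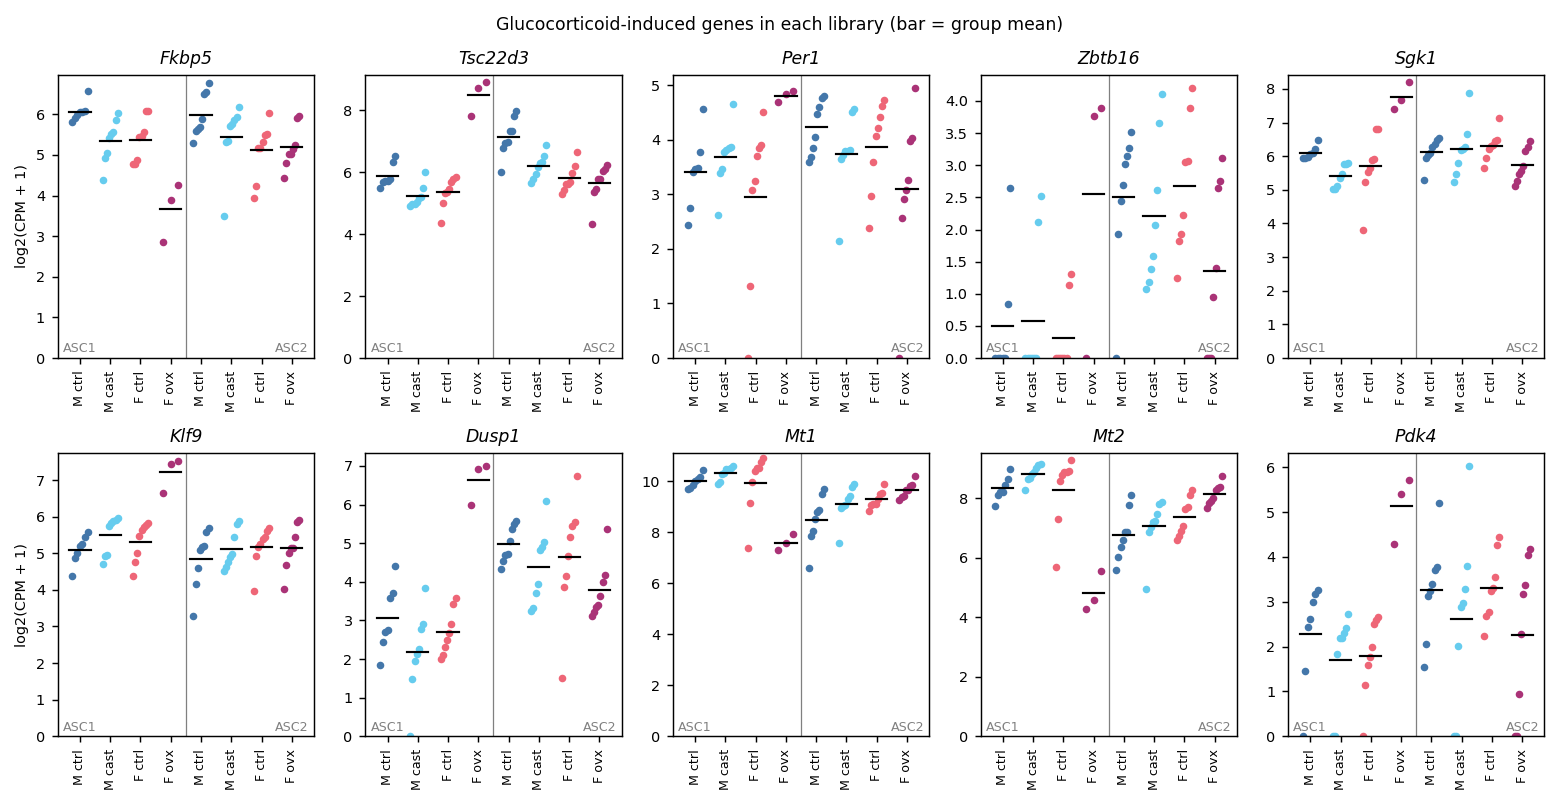
Level of each of the 10 genes in every library, as log2(CPM + 1), with ASC1 left and ASC2 right of the grey line in each panel (M, male; F, female; ctrl, control; cast, castrated; ovx, ovariectomized). Points are libraries and bars are group means of the log2 values; the 3 ASC1 libraries of ovariectomized females lay above all 8 of control females for Tsc22d3, Per1, Sgk1, Klf9, Dusp1 and Pdk4 and below them for Fkbp5 and Mt2.

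Fkbp5, the co-chaperone that restrains the receptor, was at 18.3, 13.8 and 6.19 CPM in ASC1 libraries L, N and P of ovariectomized females, from 16, 3 and 1 reads. In ASC1 of control females its lowest value was 26.2, its median 42.5 and its highest 66.8 CPM. The groups did not overlap, and the log2 fold change was -1.56 ± 0.48 (adjusted p = 0.00925, edgeR; 12.7 ± 6.11 against 43.1 ± 16.4 CPM, mean ± SD, n = 3 and 8). In ASC2 Fkbp5 had a median of 32.8 CPM (20.4 to 61.5) in ovariectomized and 37.1 CPM (14.3 to 64.9) in control females. There the log2 fold change was -0.03 ± 0.28 (adjusted p = 0.994, edgeR).

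In libraries labelled male Fkbp5 was lower on average after castration in both populations, without passing the test over all genes. In ASC2 it was at 66.7 ± 26.3 CPM in control and 47.7 ± 18.5 CPM in castrated males (mean ± SD, n = 8 and 8), with a log2 fold change of -0.52 ± 0.26 (adjusted p = 0.238, edgeR). In ASC1 the means were 66.9 ± 12.6 CPM in control and 42.0 ± 14.8 CPM in castrated males (n = 7 and 8), with a log2 fold change of -0.66 ± 0.27 (adjusted p = 0.233). The groups overlapped in both. In ASC1 all 8 libraries labelled castrated male carried Xist, at 51.9 to 118.5 CPM, and went against their label, as 4 of 7 labelled control male did. In ASC1 a castration difference of any gene therefore cannot be told apart from one between the sexes. The castration effect on Fkbp5 differed by 0.15 ± 0.38 between ASC2 and ASC1 (adjusted p = 0.903). In ASC2 of castrated males, library K had 10.2 CPM, the lowest Fkbp5 of its group.

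Tsc22d3, which encodes the anti-inflammatory protein GILZ, was the member that changed in ASC2. In ASC2 of control males it had a lowest value of 62.9, a median of 142 and a highest value of 250 CPM, and in castrated males the values were 49.2, 73.9 and 116 CPM. The groups overlapped in part, and the log2 fold change was -1.01 ± 0.22 (adjusted p = 0.002, edgeR; 74.5 ± 21.6 against 151 ± 60.9 CPM, mean ± SD, n = 8 and 8). It was the 1 member of 10 called, where 6.96% of all genes were called in either direction. The call also held without the libraries that went against their sex label, with a log2 fold change of -1.21 (adjusted p = 0.00324). In the same comparison 7 of 27 immediate early genes were lower and none higher, and their summed level was 1213 to 2798 CPM in castrated and 2200 to 4568 CPM in control males. Endothelial markers were higher for 3 of 4 genes tested (36.8 to 92.6 against 10.6 to 38.9 CPM summed) and blood cell markers for 1 of 4 (133 to 650 against 75.5 to 199 CPM). Fibroblast markers were lower for 1 of 4, Dcn, and their sums did not overlap (3024 to 6641 against 7047 to 11584 CPM). Their part in the Tsc22d3 result was not tested.

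In ASC1 of castrated males Tsc22d3 had a log2 fold change of -0.69 ± 0.25 (adjusted p = 0.139), and the effect of castration did not pass the test of a difference between the populations (-0.32 ± 0.33, adjusted p = 0.704). The difference between the castration and the ovariectomy effect in ASC2, -0.94 ± 0.32, did not pass it either (adjusted p = 0.167; 0 of 10 members and 0.602% of all genes). After ovariectomy Tsc22d3 was at 417, 482 and 223 CPM in ASC1 libraries L, N and P, while the highest of 8 control libraries was at 56.1 CPM. This was a log2 fold change of 3.15 ± 0.28 (adjusted p = 2.55e-13, edgeR), whereas in ASC2 it was -0.07 ± 0.23 (adjusted p = 0.963).

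Dusp1, a phosphatase that switches off MAP kinases, was one of the members that rose after ovariectomy in ASC1. It was at 126, 119 and 61.9 CPM in libraries L, N and P, against 2.97 to 10.9 CPM in the 8 control libraries. The groups were well apart, with a log2 fold change of 4.12 ± 0.55 (adjusted p = 2.48e-08, edgeR). In ASC2 the difference was in the other direction, -1.23 ± 0.42, without passing the test (adjusted p = 0.116), with medians of 10.6 CPM in ovariectomized and 29.7 CPM in control females.

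Sgk1, a kinase that regulates ion channels and cell survival and whose promoter held the full GRE palindrome, was at 295, 202 and 167 CPM in the same 3 libraries and at 13.1 to 112 CPM in control ASC1. Its log2 fold change was 1.83 ± 0.33 (adjusted p = 1.79e-05, edgeR). In ASC1 all 8 libraries labelled castrated male (31.5 to 54.3 CPM), which went against that label, were below all 7 labelled control male (60.3 to 88.6 CPM). The log2 fold change of -0.67 ± 0.28 did not pass the test (adjusted p = 0.253, edgeR), where 0 of 10 members and 2.36% of all genes did. Fitted to these 2 groups alone, Sgk1 passed it (adjusted p = 0.0232). In ASC2 the castration difference was 0.28 ± 0.26, and it turned to -0.11 without library K, which had 235 CPM.

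Of the transcription factors, Klf9, a repressor of the Krüppel-like family, was at 184, 174 and 99.1 CPM in the 3 libraries against 19.7 to 56.1 CPM in control ASC1, a log2 fold change of 1.87 ± 0.33 (adjusted p = 8.19e-06). Per1, a repressor of the circadian clock, was at 28.6, 27.5 and 24.8 CPM, from 25, 6 and 4 reads, and control libraries reached up to 21.8 CPM. Its log2 fold change of 1.42 ± 0.51 (adjusted p = 0.0266) was the closest to the threshold and did not hold without library L (adjusted p = 0.167), in the 2 groups alone (adjusted p = 0.0707), without a filter on counts (adjusted p = 0.0549) or without the libraries that went against their label (adjusted p = 0.0551).

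Zbtb16, which encodes the zinc finger protein PLZF, was a rare transcript. Library L had 11 reads, library N had 3 and library P none, while the 8 control ASC1 libraries held 2 reads in all. The ratio of reads per library size, adjusted by TMM, was 26.5, with a 95% exact interval of 6.08 to 240. The interval covers counting error only. The adjusted p was 0.00198 (edgeR). Without library L the adjusted p was 0.073.

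Among the genes of metals and fuel, Mt1 and Mt2 encode metallothioneins, which bind zinc and copper. Mt1 was at 158, 188 and 242 CPM in the 3 libraries. In control ASC1 it had a lowest value of 166, a median of 1406 and a highest value of 1911 CPM, so that the groups overlapped through 1 control library. The log2 fold change was -2.64 ± 0.47 (adjusted p = 9.23e-06, edgeR). Mt2 was at 22.9, 45.9 and 18.6 CPM against 50.1 to 619 CPM, a log2 fold change of -3.75 ± 0.59 (adjusted p = 1.06e-06). Pdk4, a kinase that inhibits pyruvate dehydrogenase and so spares glucose, was at 51.4, 41.3 and 18.6 CPM against at most 5.35 CPM in control ASC1 (3.50 ± 0.77, adjusted p = 0.00029).

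In ASC2 of ovariectomized females 0 of 10 members passed the test of edgeR, where 2.09% of all genes did, and DESeq2 gave 0 as well. At an unadjusted p under 0.05 by edgeR there were 3 members, and 1655 of the 12464 genes tested. The ovariectomy effect differed between ASC2 and ASC1 for all 10 (34.8% of all genes were called), from -5.35 ± 0.70 for Dusp1 to 4.44 ± 0.67 for Mt2. Without the libraries that went against their label 7 of the 10 passed, and Per1, Sgk1 and Pdk4 did not (adjusted p = 0.0774, 0.119 and 0.0724). Without library L, Per1 did not pass either (adjusted p = 0.102). For Fkbp5 (1.53 ± 0.56, adjusted p = 0.0281) the difference did not pass when any of libraries L, N or P was left out (adjusted p = 0.0534, 0.0662 and 0.0876). For castration 0 of 10 differed between the populations by edgeR or DESeq2 (2.41% of all genes). At an unadjusted p under 0.05 by edgeR 1 member did, and 1885 of the 12464 genes tested.

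**Figure D2:**
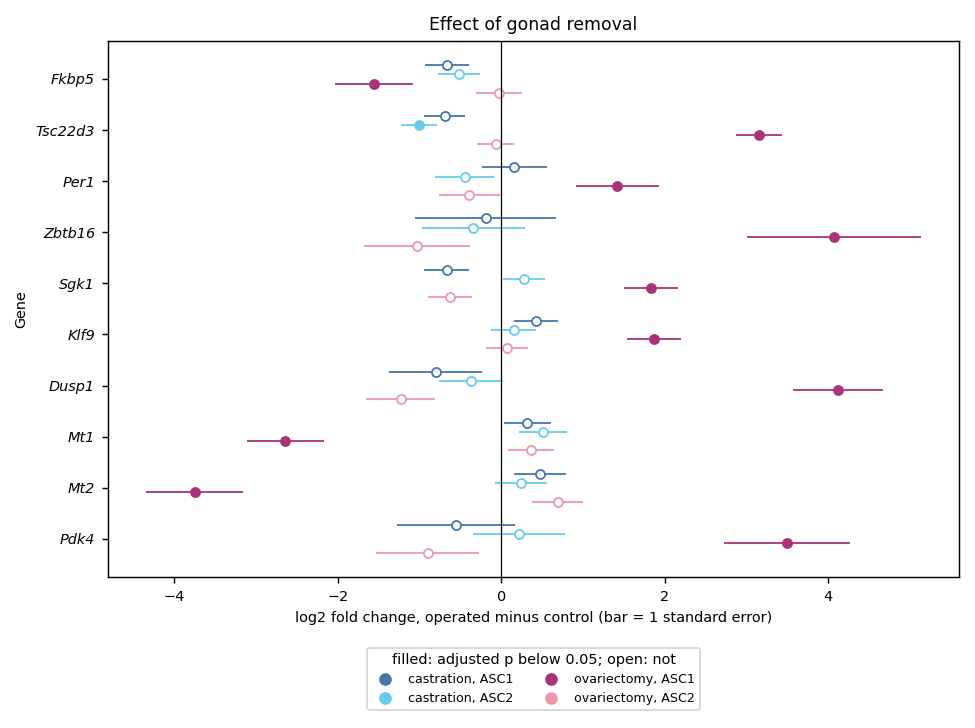
Log2 fold change of operated against control mice (x axis) for each gene (y axis), by population and operation. Bars are 1 SE, filled points passed an adjusted p of 0.05 and open points did not; ovariectomy in ASC1 gave 10 filled points, 3 of them left of 0 (Fkbp5, Mt1 and Mt2), and the other 3 comparisons gave 1, Tsc22d3 after castration in ASC2.

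The second question was how ASC2 differed from ASC1. In control males 3 members were higher in ASC2 (Tsc22d3, Zbtb16 and Dusp1, where 6.88% of all genes were higher) and 2 were lower (Mt1 and Mt2, where 5.30% were lower). In castrated males 3 were higher (Tsc22d3, Sgk1 and Dusp1, with 4.47% of all genes) and 2 were lower, again Mt1 and Mt2 (4.62%). In control females 2 were higher (Zbtb16 and Dusp1, with 3.54%) and 2 were lower, Mt1 and Mt2 (2.58%). These comparisons use separate groups of libraries. Dusp1, Mt1 and Mt2 passed the test in all 3. In control females, however, none of the 4 calls held without the libraries that went against their label (0 of 10). Mt1 and Mt2 then turned to 0.11 and 0.48. That fit left out 5 of 8 ASC1 and 6 of 8 ASC2 libraries of control females. The part of the smaller number of libraries in the loss was not tested. In control females Mt1 and Mt2 also did not pass when the fit paired libraries by their replicate letter. In control males 3 calls held without those libraries, for Tsc22d3, Mt1 and Mt2. For castrated males such a value could not be had. There all 8 ASC1 libraries carried Xist (51.9 to 118.5 CPM) and went against their label. The 8 ASC2 libraries had Y-linked transcripts at 55.9 to 100.1 CPM, as labelled. In castrated males a difference between the populations therefore cannot be told apart from one between the sexes.

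The Dusp1 values of control males were 19.1, 28.8 and 46.3 CPM (lowest, median and highest) in ASC2 and 2.62, 5.69 and 20.4 CPM in ASC1. The groups overlapped slightly, with a log2 fold change of 1.96 ± 0.46 (adjusted p = 0.00239, edgeR), which without the libraries that went against their label was 1.56 (adjusted p = 0.107). After castration the values were 8.55, 20.9 and 66.7 CPM for ASC2 against 0, 3.61 and 13.3 CPM for ASC1 (2.39 ± 0.50, adjusted p = 0.000751). For control females they were 1.85, 29.7 and 105 CPM against 2.97, 5.01 and 10.9 CPM (2.56 ± 0.48, adjusted p = 0.000145).

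Immediate early genes, with which Dusp1 is often induced, were higher in ASC2 in the same comparisons. Of 27 tested, 10 were higher in control males, 7 in castrated males and 11 in control females, and none was lower. Their summed level was 2200 to 4568 CPM in ASC2 and 956 to 1660 CPM in ASC1 of control males, so the ranges did not overlap. Nr4a1, an orphan nuclear receptor of this list, was at 275 CPM in ASC2 and 14.0 CPM in ASC1 of control males (means; 4.19 ± 0.48, adjusted p = 2.51e-09). The part of dissociation in the Dusp1 difference was not tested.

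Mt1 showed the clearest separation in control males, with 95.9, 402 and 823 CPM (lowest, median and highest) in ASC2 and 835, 1023 and 1404 CPM in ASC1. All 8 ASC2 libraries were below all 7 ASC1 libraries (-1.28 ± 0.30, adjusted p = 0.00199, edgeR), and without the libraries that went against their label the log2 fold change was -1.78 (adjusted p = 0.0114). Mt2 had medians of 106 CPM in ASC2 and 297 CPM in ASC1 (-1.38 ± 0.32, adjusted p = 0.00232). In castrated males Mt2 was at 30.1 to 233 CPM in ASC2 and at 312 to 569 CPM in ASC1, again without overlap (-1.61 ± 0.32, adjusted p = 0.000345), and Mt1 had a log2 fold change of -1.09 ± 0.29 (adjusted p = 0.00846). In control females the log2 fold changes were -0.90 ± 0.29 for Mt1 (adjusted p = 0.043) and -1.07 ± 0.31 for Mt2 (adjusted p = 0.0243), neither of which passed in the 2 groups alone (adjusted p = 0.094 and 0.0761).

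Tsc22d3 was higher in ASC2 by 1.33 ± 0.23 on the log2 scale in control males (adjusted p = 4.69e-05, edgeR), with 62.9 to 250 CPM against 43.6 to 90.3 CPM. In castrated males the difference was 1.01 ± 0.24 (adjusted p = 0.00281), and in control females 0.42 ± 0.24 (adjusted p = 0.34). Sgk1 passed the test only in castrated males among the 3 (1.01 ± 0.27, adjusted p = 0.0105), and not without library K (0.61, adjusted p = 0.122). Zbtb16 had 39 reads in ASC2 and 7 in ASC1 of control males, a ratio of reads per TMM-adjusted library size of 4.74 (95% exact interval 2.09 to 12.5, counting error only). Its edgeR call (adjusted p = 0.0425) was lost without the libraries against their label (adjusted p = 0.0544), in the 2 groups alone (0.0712) or without a count filter (0.0803). In control females Zbtb16 had 41 and 2 reads, a ratio of 17.2 (4.47 to 147, adjusted p = 0.00461, edgeR). In castrated males, with 23 and 5 reads, it did not pass the test (adjusted p = 0.0994).

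Fkbp5 did not pass the test between the populations in these 3 conditions, with log2 differences of -0.01 ± 0.26 in control males, 0.14 ± 0.27 in castrated males and -0.25 ± 0.27 in control females. Klf9, Per1 and Pdk4 did not pass it either. Pdk4 had mean levels of 11.4, 12.7 and 10.3 CPM in ASC2 and 4.97, 2.94 and 2.95 CPM in ASC1 of control males, castrated males and control females, and its adjusted p-values were 0.277, 0.0624 and 0.174.

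In ovariectomized females, where ASC1 was represented by the 3 libraries described above, 3 members were higher in ASC2 (Fkbp5, Mt1 and Mt2, where 22.5% of all genes were higher) and 5 lower (Tsc22d3, Sgk1, Klf9, Dusp1 and Pdk4, where 12.9% were lower). For Tsc22d3, Dusp1, Mt1 and Mt2, which were called in both control and castrated males, the sign was the reverse of that in those males. Per1, Zbtb16, Sgk1 and Pdk4 also had the reverse sign, but were not called in all 3 of these conditions. Dusp1 was at 7.69 to 40.1 CPM in ASC2, below all 3 ASC1 libraries (-2.79 ± 0.51, adjusted p = 1.56e-05, edgeR). Mt2 was at 204 to 430 CPM in ASC2, above all 3 (3.37 ± 0.59, adjusted p = 6.93e-06). Fkbp5 was higher by 1.27 ± 0.49 (adjusted p = 0.0349), a call that was lost when any of libraries L, N or P was left out (adjusted p = 0.0694, 0.0831 and 0.111) and without a count filter (adjusted p = 0.052). The Pdk4 call was lost without library L (adjusted p = 0.0679). These ASC1 libraries are the same ones that enter the ovariectomy comparison in ASC1.

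**Figure D3:**
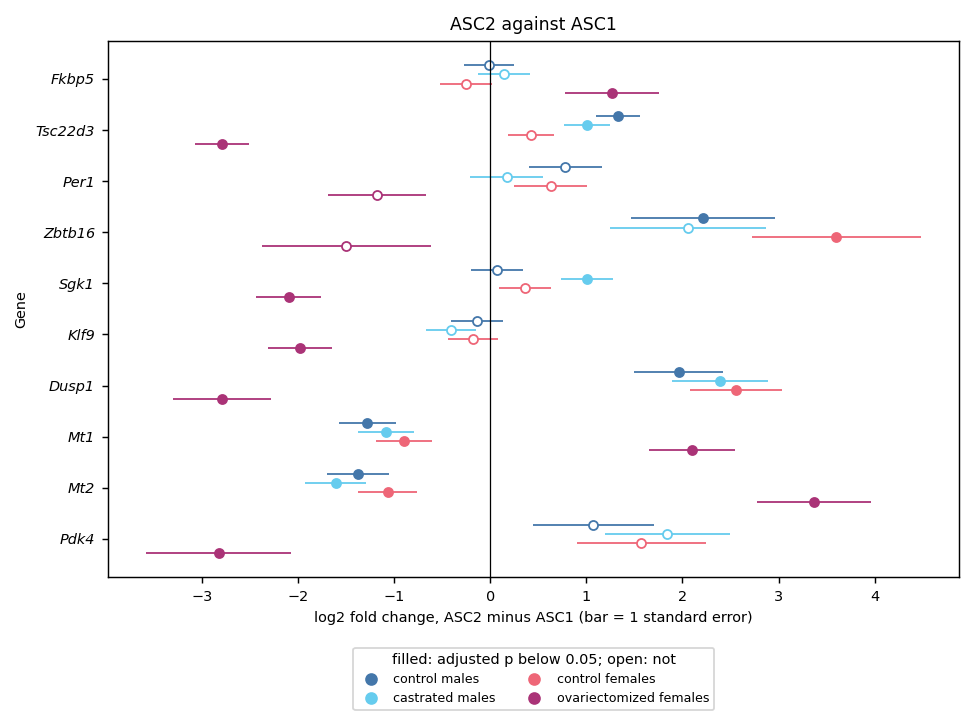
Log2 fold change of ASC2 against ASC1 (x axis) for each gene (y axis) in the 4 conditions, with 1 SE as bars, filled where the adjusted p was below 0.05 and open otherwise. In control males, castrated males and control females Dusp1 lay right of 0 and Mt1 and Mt2 left of it, and in ovariectomized females their signs were the reverse.

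Between the sexes, 2 of 10 members passed the test in control ASC2, both higher in libraries labelled male (6.50% of all genes were called). Tsc22d3 was at 151 ± 60.9 CPM in males and 57.2 ± 19.6 CPM in females (mean ± SD, n = 8 and 8; log2 fold change 1.39 ± 0.22, adjusted p = 5.06e-05, edgeR), and Fkbp5 at 66.7 ± 26.3 and 36.8 ± 16.0 CPM (0.86 ± 0.26, adjusted p = 0.0348). Without the libraries that went against their label, which left 4 males and 2 females, Tsc22d3 still passed (1.62, adjusted p = 0.0246) and Fkbp5 did not (1.55, adjusted p = 0.0872). Fkbp5 also did not pass without library E of control females (0.71, adjusted p = 0.105). In control ASC1 0 of 10 passed by edgeR or DESeq2 (0.289% of all genes). An unadjusted p under 0.05 by edgeR was found for 1 member, and for 1039 of the 12464 genes tested.

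Whether the 10 genes rose and fell together from library to library was examined as deviations from the group mean of log2(CPM + 1), with 20 relations in all (Fkbp5 with the 9 others and Mt1 with Mt2, in each population) and two-sided permutation tests of 100000 resamples within groups. Mt1 and Mt2 varied together, with a Pearson r of 0.88 in ASC2 (n = 32, permutation p = 1e-05, the smallest these can give, adjusted p = 0.0002; Spearman rho 0.83, permutation p = 1e-05) and 0.93 in ASC1 (n = 26, permutation p = 4e-05, adjusted p = 0.0004; rho 0.79, permutation p = 0.00032). Without the 2 libraries farthest from the median of Mt1, r was 0.84 and 0.78.

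The relations of Fkbp5 with the other members differed in sign. In ASC2 it was lower where Tsc22d3 was higher (r = -0.55, permutation p = 0.00088, adjusted p = 0.00587; rho = -0.52, permutation p = 0.0044; r = -0.44 without the 2 farthest libraries) and where Klf9 was higher (r = -0.48, permutation p = 0.00494, adjusted p = 0.0247; rho = -0.51, permutation p = 0.00557; r = -0.46 without the 2 farthest). In ASC1 it varied with Sgk1 (r = 0.54, permutation p = 0.00878, adjusted p = 0.0332; rho = 0.56, permutation p = 0.0121; r = 0.58 without the 2 farthest) and against Mt1 (r = -0.49, permutation p = 0.00996, adjusted p = 0.0332; rho = -0.53, permutation p = 0.00825; r = -0.55). The remaining 14 relations of Fkbp5 did not pass the adjusted threshold. With Tsc22d3 in ASC1 r was 0.44 (adjusted p = 0.126 by permutation). Deviations taken within libraries of one group that also shared the same state of agreement with the sex label gave -0.63 for Tsc22d3 and -0.45 for Klf9 in ASC2, and 0.55 for Sgk1 and -0.61 for Mt1 in ASC1.

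**Figure D4:**
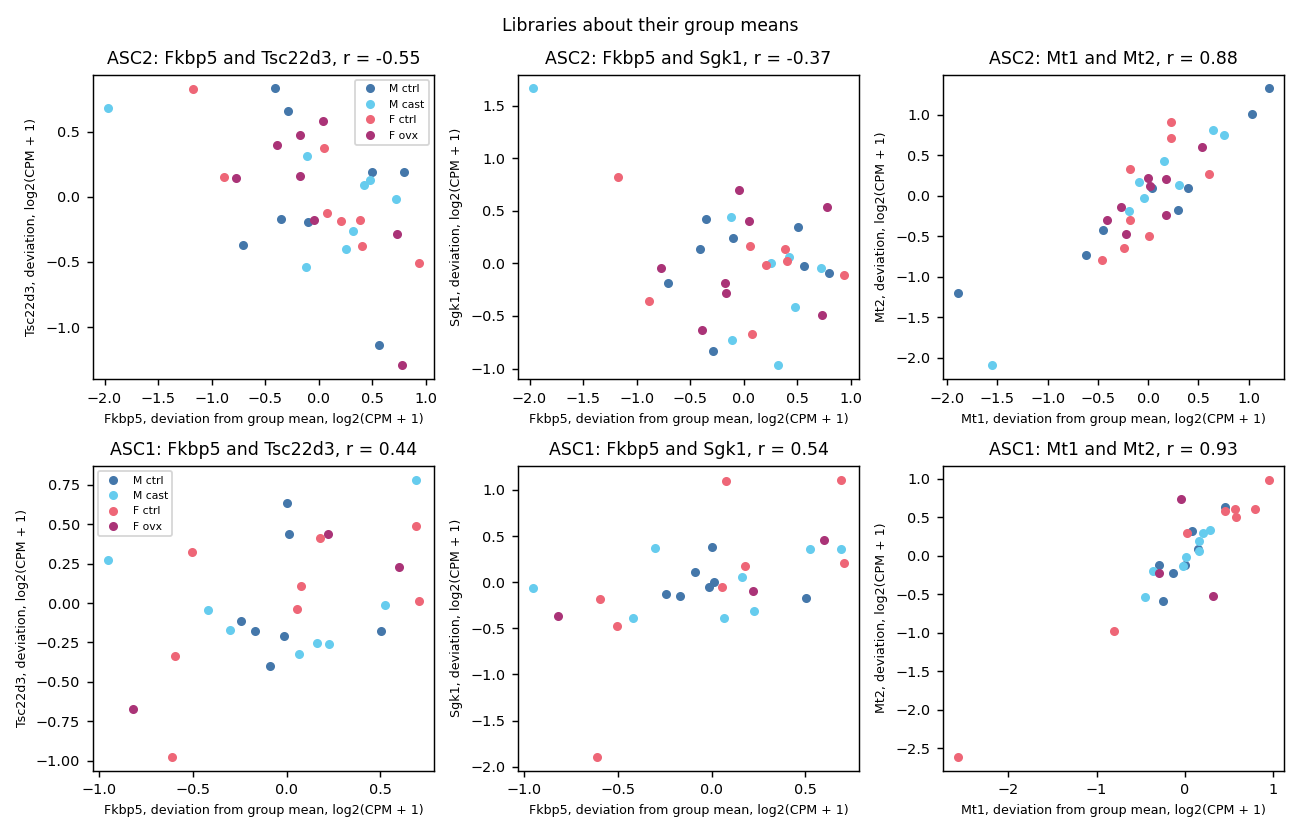
Deviations of single libraries from their group mean, log2(CPM + 1), for Fkbp5 with Tsc22d3, Fkbp5 with Sgk1 and Mt1 with Mt2, in ASC2 (top) and ASC1 (bottom), coloured by condition. Mt1 and Mt2 lay along a line in both populations (r = 0.88 and 0.93), while Fkbp5 and Tsc22d3 had an r of -0.55 in ASC2 and 0.44 in ASC1.

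Over all 58 libraries, the 5 genes most like Fkbp5 among 10541 genes with a mean of at least 5 CPM were ENSMUSG00000120992.1, which had no symbol, Cit, Loxl3, Ccl2 and Pimreg, with Pearson r of 0.81, 0.81, 0.80, 0.80 and 0.79. Cit encodes a kinase of cytokinesis, Loxl3 a lysyl oxidase of the matrix and Ccl2 a chemokine. Of the other members, Mt2 ranked highest with an r of 0.14, and Klf9 lowest with -0.58. The 58 libraries share the differences between groups, so these values describe the pattern and carry no test. The 5 libraries lowest in the genes of dividing cells were the 3 ASC1 libraries of ovariectomized females, library K of castrated male ASC2 (164 CPM) and library E of control female ASC2 (195 CPM), and the other 53 were at 332 to 1285 CPM. Library K had the highest Sgk1, Dusp1 and Pdk4 (235, 66.7 and 63.8 CPM) of its group and library E the highest Sgk1, Dusp1 and Pdk4 (139, 105 and 20.6 CPM) of its own, and both had the lowest Fkbp5 (10.2 and 14.3 CPM).

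The genes around the pathway gave the setting of these values. Their calls were not followed one by one without the libraries that went against their label. Without those libraries, 3 of all genes tested were called for ovariectomy in ASC2, against 261 with all libraries. For ASC2 against ASC1 in control females 94 were called, against 762. Of the control females, 6 of 8 ASC2 and 5 of 8 ASC1 libraries were left out there. Of 15 steroid receptor and cofactor genes tested, 2 were higher and 4 lower after ovariectomy in ASC1, shares close to those over all genes in that comparison (12.7% higher and 22.1% lower), against which the counts of the other lists there are also to be read. Nr3c1, the glucocorticoid receptor, had means of 89.8 CPM in ovariectomized and 61.2 CPM in control ASC1 (0.66 ± 0.32, adjusted p = 0.106), whereas Esr1, an estrogen receptor, rose by 3.91 ± 0.47 (adjusted p = 1.45e-09). Stip1, an Hsp90 co-chaperone, fell (-1.55 ± 0.30, adjusted p = 3.59e-05). In ASC2 after castration 1 of the 15 was lower, the coactivator gene Ncoa3 (-1.06 ± 0.30, adjusted p = 0.0191). Between the populations, Nr3c1 had means of 62.5 CPM in ASC2 and 58.5 CPM in ASC1 of control males (adjusted p = 0.83).

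Of 6 tested genes that activate, inactivate or export glucocorticoids, 2 were lower in ASC2 than in ASC1 in both sexes of controls. Hsd11b1, whose enzyme regenerates active hormone from its inert 11-keto form, was at a mean of 41.4 CPM in ASC2 and 179 CPM in ASC1 of control males (-2.09 ± 0.54, adjusted p = 0.0065) and at 82.6 and 288 CPM in control females (-1.79 ± 0.51, adjusted p = 0.0203). H6pd, which supplies NADPH to that enzyme, differed by -1.53 ± 0.36 in males (adjusted p = 0.00241) and -1.43 ± 0.35 in females (adjusted p = 0.00467). None of the 6 changed with castration in either population or with ovariectomy in ASC2 by edgeR, and 3 were lower after ovariectomy in ASC1, H6pd and the transporters Abcb1a and Abcb1b.

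Of 28 other genes known to be induced by glucocorticoids, 6 were higher and 5 lower after ovariectomy in ASC1, with a median log2 fold change of -0.24 (-0.34 over all genes). Txnip, an inhibitor of thioredoxin, was at a mean of 2157 CPM against 174 CPM (3.65 ± 0.32, adjusted p = 2.06e-13), and Nfkbia, Glul and Ccn2 differed by 2.25, 1.26 and -2.35 on the log2 scale. In ASC2 of castrated males 1 was higher (Ccn2) and 3 were lower, among them Gpx3, a secreted glutathione peroxidase, which fell from 3103 to 556 CPM (-2.48 ± 0.42, adjusted p = 8.35e-05). After ovariectomy in ASC2 1 was higher, Ccn2, and 1 lower, Anxa1. In control males 3 were higher and 2 lower in ASC2 than in ASC1, with Anxa1, a mediator of glucocorticoid action on inflammation, at 4957 against 1846 CPM (1.42 ± 0.24, adjusted p = 2.48e-05).

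Of 15 clock genes tested beside Per1, 5 were higher and 3 lower after ovariectomy in ASC1. The repressor Nr1d1 rose (1.93 ± 0.28, adjusted p = 2.46e-07) and Dbp rose (2.59 ± 0.77, adjusted p = 0.00631). In ASC2 of castrated males 2 clock genes were lower, Per3 (-1.56 ± 0.42, adjusted p = 0.0153) and Bhlhe41 (-1.62 ± 0.51, adjusted p = 0.0396). Of 27 immediate early genes 14 were higher and 1 lower after ovariectomy in ASC1, with Fos at a mean of 2077 against 111 CPM, and in ASC2 8 were lower after ovariectomy and 7 after castration, with none higher.

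Of 8 metal and redox response genes tested, 4 were lower after ovariectomy in ASC1, as Mt1 and Mt2 were. Hmox1, heme oxygenase, was at 39.9 against 358 CPM (-3.25 ± 0.43, adjusted p = 2.31e-08), and Slc39a14, a zinc importer, fell by 3.63 on the log2 scale (adjusted p = 2.83e-05). Mtf1, the factor that binds the MRE, had a log2 fold change of -1.24 ± 0.46 (adjusted p = 0.0318), a call that was lost without any 1 of the 3 libraries. In ASC2 of castrated males 3 of the 8 were higher, Hmox1 (1.52 ± 0.24, adjusted p = 2.05e-05), Gclm and Txnrd1, and Mt1 and Mt2 did not pass the test there (adjusted p = 0.293 and 0.719). Of 17 genes of fasting and fatty acid oxidation beside Pdk4, 6 were higher and 3 lower after ovariectomy in ASC1. Pdk1, a relative of Pdk4, fell (-4.52 ± 1.12, adjusted p = 0.00122), while in ASC2 after ovariectomy 4 of the 17 were lower and none higher.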

How the data were processed

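Salmon 1.9.0 with Gencode transcripts of GRCm39 gave the estimated counts, which the authors deposited per gene as raw values after dropping libraries in which few genes were detected. All 58 libraries and no other column were used. Groups came from the labels, which do not mark separate mice beyond a letter, so p-values measure the spread between these libraries.

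Counts were rounded (15.0% of those above 0 were not whole) and tested with edgeR 4.0.16 in R 4.3.3 on 12464 genes, of which 12371 had a symbol in the table of gene names used. CPM used a pseudocount of 1 on the log2 scale, and the biological coefficient of variation was 35.6%. Alternatives were DESeq2 size factors, DESeq2 1.42.0, no count filter, only the groups compared, and libraries left out, those named K and E after values had been seen. Named genes are the 10 members, at most 4 genes of each list and comparison with the lowest adjusted p, a few receptors and enzymes of those lists chosen after their values were seen, and the 5 genes most like Fkbp5. Relations were tested with scipy 1.17.1. The members and lists were chosen with earlier results of these data known. The fit was tested on simulated data. Promoters came from RefSeq, GRCm38.p6.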

Additional observations from a re-analysis of the deposited data

Results flagged for a closer look

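In 11 of 70 tests of a member in a group of 7 or 8 libraries, 1 library lay far from the others by Dixon's criterion. Independent and normally distributed values meet it by chance in about 1 of 20. Libraries K and E gave several of the 11, so the tests were not independent, and 11 of 70 is not a measured excess. In ASC2 of castrated males library K had 235 CPM of Sgk1 (next 100), 66.7 CPM of Dusp1 (next 31.9) and 63.8 CPM of Pdk4 (next 12.9). In ASC2 of control females library E had 139 CPM of Sgk1 (next 88.0) and 105 CPM of Dusp1 (next 45.8). Library M of ASC2 of ovariectomized females had 40.1 CPM of Dusp1 (next 17.1), and library D of ASC2 of control males had 35.7 CPM of Pdk4 (next 12.7). In ASC1 of control males library C had 93.9 CPM of Fkbp5 (next 66.7) and library E 5.23 CPM of Zbtb16 (next 0.783). In ASC1 of castrated males library I had 62.8 CPM of Tsc22d3 (next 43.9) and library P 24.0 CPM of Per1 (next 13.6).

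The effect of ovariectomy differed between ASC2 and ASC1 by the interaction test of edgeR for all 10 members, where 34.8% of all genes were called, and for 7 without the libraries that went against their sex label (not for Per1, Sgk1 and Pdk4). On the log2 scale the ASC2 effect was lower than the ASC1 effect by -5.35 for Dusp1 (adjusted p = 1.22e-08), -5.10 for Zbtb16 (0.00103), -4.40 for Pdk4 (0.000482), -3.22 for Tsc22d3 (4.41e-10), -2.46 for Sgk1 (9.56e-06), -1.80 for Klf9 (0.000716) and -1.80 for Per1 (0.0227). It was higher by 4.44 for Mt2 (3.68e-07), 3.00 for Mt1 (1.2e-05) and 1.53 for Fkbp5 (0.0281).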

How the results depend on the processing

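Over the alternatives for the 10 genes, 772 values kept their direction and side of the threshold, 36 lost the call, 7 gained one and 25 reversed. The causes were not tested, beyond the smaller number of libraries or the other set of genes an alternative leaves. Fitted to the compared groups alone, the genes called numbered 305 for castration in ASC2, 573 for castration in ASC1 (1 member), 172 for ovariectomy in ASC2, 373 for male against female ASC2 (1 member) and 49 for castration minus ovariectomy in ASC2. Without a count filter they were 81 for male against female ASC1, 454 for the castration difference between populations and 278 for castration minus ovariectomy, where DESeq2 gave 177.

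Without the libraries against their sex label, 3 genes were called for ovariectomy in ASC2, 930 for ASC2 against ASC1 in control males (3 members), 94 in control females (0 members), 297 for male against female ASC2 (1 member), 87 in ASC1, 2788 for the ovariectomy difference between populations (7 members) and 0 for castration minus ovariectomy, and log2 values reversed to 0.47 (Fkbp5), -0.13 (Klf9) and -0.00 (Mt2) for ovariectomy in ASC2, 0.05 (Fkbp5) for control males, -0.65 (Sgk1), 0.66 (Klf9), 0.11 (Mt1) and 0.48 (Mt2) for control females, 0.49 (Sgk1) and 0.74 (Dusp1) for male against female ASC2, -0.46 (Sgk1), 0.43 (Klf9), 0.56 (Mt1) and 0.44 (Mt2) for ASC1, -0.03 (Dusp1) and 0.79 (Mt2) for castration minus ovariectomy and -0.04 (Pdk4) for castration in ASC2.

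Leaving out 1 of libraries L, N and P gave 2328 to 4179 genes for ovariectomy in ASC1 (8 to 10 members), 2521 to 4152 for ASC2 against ASC1 in ovariectomized females (6 to 7) and 2715 to 4216 for the difference between populations (8 to 9), each lowest without library L, the deepest. Leaving out library K or E was chosen after seeing the data. Without E, 98 genes were called for ovariectomy in ASC2 and 1 member for male against female ASC2, and values reversed to 0.08 (Tsc22d3, ovariectomy in ASC2), 0.04 (Zbtb16) and 0.26 (Dusp1, both male against female ASC2). Without K they reversed to -0.11 (Sgk1) and -1.05 (Pdk4) for castration in ASC2, -0.48 (Pdk4) for its difference between populations, and -0.15 (Pdk4, against 0.94 without E) and -0.01 (Klf9) for castration minus ovariectomy. Without the 2 farthest libraries, correlations with Fkbp5 reversed to 0.07 (Per1) and 0.11 (Sgk1) in ASC2 and 0.04 (Per1) and -0.08 (Dusp1) in ASC1. Both populations were sorted from the same tissue, but no source used here says that a shared letter, which is also the plate row, marks a shared mouse. Of 26 same-letter pairs, 8 had a correlation over 0.1 (range -0.328 to 0.487). Most were above the median correlation with other letters (control female F, 0.487 against -0.263) and the others below it (castrated male I, -0.328 against 0.165). Whether letters mark mice was not settled, and the main fit did not pair the libraries. With the replicate block, ASC2 against ASC1 gave 1397 genes and 4 members in control males (without Zbtb16), 996 and 4 in castrated males (without Sgk1), 719 and 2 in control females (without Mt1 and Mt2) and 2953 and 7 in ovariectomized females (without Fkbp5 and Pdk4, with Per1).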
